A study of Mus musculus with 8 samples.

Results

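Slc13a3 and 6 further genes of dicarboxylate and itaconate handling were followed in primary cultured mouse microglia, which are the brain's own macrophages, after IgG treatment. The 7 genes (Slc13a3, Acod1, Sucnr1, Clybl, Slc25a1, Slc25a10 and Slc25a11) were found by symbol among the 55385 genes of the count table, and 6 of them had enough counts to be among the 17537 genes tested. They had been picked with the comparison of IgG and control already known, so their differences between the groups are given as a description, with no p-value of their own.

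The microglia came from the neocortex and hippocampus of wild-type newborn mice, with the brains pooled in flasks, so that a library does not stand for one animal. Cells were grown for 12 days in flasks, shaken off and plated for 3 days, and both groups were collected as poly(A) RNA. The 4 IgG libraries had 10 µg/ml IgG for 24 h at DIV15. The 4 control libraries are labelled untreated, and the study's methods give PBS as their treatment. Each replicate number stands for one date with 1 library of either group, which gives 4 pairs. The numbers follow the calendar order of the dates in the labels, and a trend over the dates was not tested. IgG libraries 1 and 3 stood apart from IgG libraries 2 and 4, with a chi-square per degree of freedom over genes of 65.3 to 121 between them. It was 6.59 between libraries 1 and 3, 26.9 between libraries 2 and 4, and at most 17.6 among control libraries. For Slc13a3 and Acod1 the values without pairs 1 and 3 are given as well.

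Dicarboxylates such as succinate, alpha-ketoglutarate and malate are intermediates of the citric acid cycle. In macrophages and microglia, inflammatory signals switch on Acod1, which decarboxylates cis-aconitate to itaconate in the mitochondrion, and itaconate inhibits succinate dehydrogenase. Slc13a3 (NaDC3) is a sodium-coupled plasma membrane transporter that brings dicarboxylates and N-acetylaspartate into cells and can carry itaconate. Itaconate is broken down through itaconyl-CoA and citramalyl-CoA, which Clybl cleaves. Slc25a1, Slc25a10 and Slc25a11 carry citrate, dicarboxylates and oxoglutarate across the inner mitochondrial membrane, and Sucnr1 is the cell surface receptor for succinate.

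The promoters of Slc13a3 and Acod1, the 2 genes with the largest differences between the groups, are shown because they are built differently. The 230 bases from 250 to 21 bases before the RefSeq start are printed 5′ to 3′ on the strand of the gene (build GRCm38.p6). These are chr2:165473218-165473447 on the minus strand for Slc13a3 and chr14:103046762-103046991 on the plus strand for Acod1. Capitals mark GC boxes (GGGCGG) and an E-box (CACGTG) in Slc13a3, and a PU.1 core (AGGAAGT), a kappa B-like palindrome (GGAANTTCC) and a TATA box (TATAAA) in Acod1.
Slc13a3: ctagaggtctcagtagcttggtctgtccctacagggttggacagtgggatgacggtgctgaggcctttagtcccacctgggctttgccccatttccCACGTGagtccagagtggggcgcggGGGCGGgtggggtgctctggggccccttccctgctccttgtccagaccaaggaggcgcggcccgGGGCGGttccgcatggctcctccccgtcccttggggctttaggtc
Acod1: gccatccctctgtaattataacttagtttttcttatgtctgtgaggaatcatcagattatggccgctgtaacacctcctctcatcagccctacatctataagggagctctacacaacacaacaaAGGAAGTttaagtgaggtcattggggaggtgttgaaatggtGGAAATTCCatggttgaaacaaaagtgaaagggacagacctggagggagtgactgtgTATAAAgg

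All 7 genes had an entry among the 32851 RefSeq promoter windows of 300 bases, from 250 before to 50 after the start. The Slc13a3 window had a GC content of 69.3% and 22 CpG dinucleotides, and that of Acod1 had 47% and 2 CpG, where the medians over all windows were 52.7% and 7. In Slc13a3 the E-box lay 154 to 149 bases before the start and the GC boxes 129 to 124 and 65 to 60 bases before it. The GENCODE start of Slc13a3, at 165473230, lies upstream of that of RefSeq, so that these distances are shorter from it and the last printed bases fall inside a GENCODE exon. In Acod1 the TATA box lay 28 to 23 bases before the RefSeq start. For Acod1 the GENCODE start, at 103046977, is upstream as well, and by GENCODE the same letters fall inside the first exon. A GC box on either strand was found in 5 of the 7 windows and in 35.7% of all windows. An E-box was found in Slc13a3 and Slc25a1 and in 7.15% of all windows. The TATA box, read on the sense strand only, was found in Acod1 alone among the 7 and in 8.32% of all windows. On either strand, the PU.1 core was in 9.35% and the kappa B-like palindrome in 0.928% of all windows, and among the 7 both were in Acod1 alone. An interferon-stimulated response element (GAAANNGAAA, either strand) was in none of the 7 windows and in 3.44% of all. A gamma-activated site (TTCNNNGAA, either strand) was in none of the 7 and in 8.3% of all. An AP-1 site (TGANTCA, either strand) was in Sucnr1 and Slc25a11 and in 7.81% of all windows. An antioxidant response element (TGANNNNGC, either strand) was in Slc13a3, 201 to 193 bases before the start and not capitalised above, in Slc25a11 and in 41.3% of all windows. The motifs were picked with the sequences in view, and a match describes letters, not a bound site.

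Slc13a3 (ENSMUSG00000018459, chromosome 2, 165405028 to 165473230, minus strand, GRCm38) was higher in every IgG library than in any control library. Its level, in counts scaled per library with TMM (CPM), was 21.3, 21.8, 19.2 and 12.7 in control libraries 1 to 4. In IgG libraries 1 to 4 it was 138, 95.3, 134 and 57.3 CPM. The lowest IgG library, the fourth, was thus still above the highest control library, and its paired control was also the lowest of its group. These levels rested on 294 to 513 counts in control libraries and on 1258 to 2974 counts in IgG libraries. The mean was 18.7 ± 4.21 CPM for control and 106 ± 37.7 CPM for IgG (SD, n = 4 each).

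The log2 fold change of Slc13a3 was 2.50 (standard error 0.28), or 5.66-fold. Within the pairs the differences in log2 CPM were 2.69, 2.12, 2.80 and 2.17, so that pairs 1 and 3 differed most. The mitochondrial share of counts was 4.85% and 5.59% in IgG libraries 1 and 3 and between 1.97% and 2.41% in the other 6 libraries, and the part of this in the size of the difference was not tested. In pairs 2 and 4, where the mitochondrial share was not raised, a fit of those 4 libraries alone gave 2.15 (standard error 0.29), a setting added after the data were seen. With the replicate number as a block the log2 fold change was 2.45 and its standard error fell to 0.14.

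Acod1 (ENSMUSG00000022126, chromosome 14, 103046977 to 103056573, plus strand), the itaconate-forming enzyme, was higher with IgG in all 4 pairs, but the groups overlapped. Its level was 32.1, 24.1, 28.0 and 24.4 CPM in control libraries 1 to 4. In IgG libraries 1 to 4 it was 62.4, 30.4, 58.9 and 41.9 CPM. The second IgG library lay below the first control library, and the other 3 IgG libraries lay above all controls. The log2 fold change was 0.83 (standard error 0.21), or 1.78-fold, on 534 to 775 counts in control and 700 to 1350 counts in IgG libraries. Within the pairs the log2 differences were 0.96, 0.34, 1.07 and 0.78. The larger values again fell in pairs 1 and 3, and the fit of pairs 2 and 4 alone gave 0.58 (standard error 0.16). Acod1 is also among the genes the study lists under enriched terms, for the responses to interferon-beta and interferon-gamma and the inflammatory response. Those terms were derived from these libraries.

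**Figure D1:**
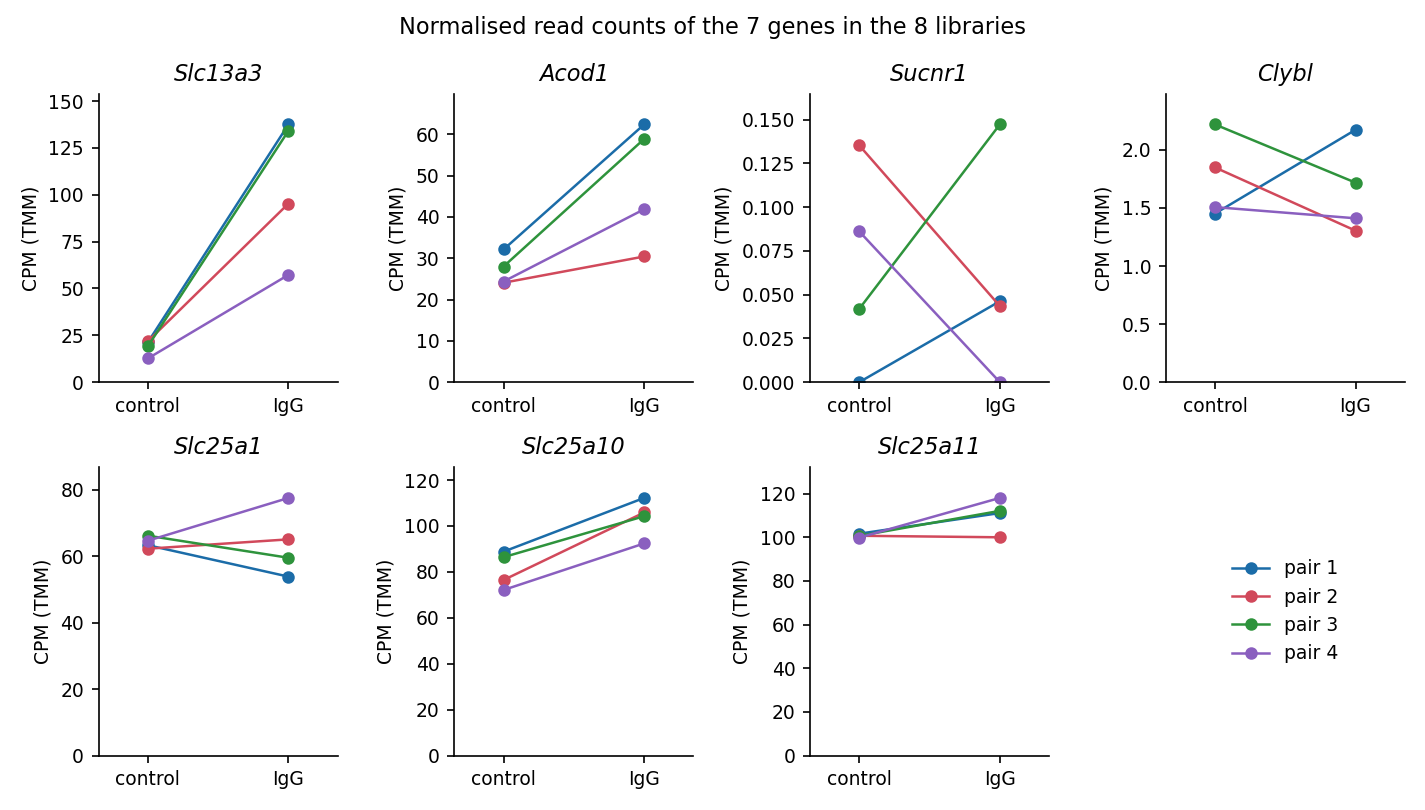
Normalised read counts (CPM, TMM scaling, linear axes from 0) of the 7 genes in control and IgG libraries, with a line joining the 2 libraries of a pair. Slc13a3 was between 12.7 and 21.8 CPM in control and between 57.3 and 138 CPM in IgG libraries, and Sucnr1 stayed at or below 0.147 CPM.

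Slc25a10 (ENSMUSG00000025792, chromosome 11, 120491840 to 120499187, plus strand), the mitochondrial dicarboxylate carrier that exchanges malate and succinate for phosphate, was higher with IgG in all 4 pairs by a smaller amount. It had 88.8, 76.5, 86.4 and 72.1 CPM in control libraries 1 to 4. In IgG libraries 1 to 4 it had 112, 106, 104 and 92.4 CPM. The groups did not overlap, although the fourth IgG library was close to the first control library. The log2 fold change was 0.36 (standard error 0.10), and the differences within pairs were 0.34, 0.47, 0.27 and 0.36, the narrowest spread among the 6 tested members (SD 0.08). Of its exon bases, 6.6% are shared with Gm11788 on the opposite strand, and since the use of strand in counting is not given in the sources used here, reads there cannot be assigned with certainty.

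Slc25a11 (ENSMUSG00000014606, chromosome 11, 70644196 to 70647479, minus strand), the oxoglutarate carrier, had 99.9 to 102 CPM in the control libraries. In IgG libraries 1 to 4 it had 111, 100, 112 and 118 CPM, which overlapped the controls through the second library alone. The log2 fold change was 0.13 (standard error 0.08), and 3 of 4 pairs were higher. An 8.9% share of its exon bases lies opposite exons of Rnf167.

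Slc25a1 (ENSMUSG00000003528, chromosome 16, 17925223 to 17928219, minus strand), the citrate carrier, had 62.3 to 66.2 CPM in the control libraries. In IgG libraries 1 to 4 it had 53.9, 65.1, 59.6 and 77.6 CPM, so that the IgG group lay on both sides of the controls. Its log2 fold change was 0.00 (standard error 0.11), with 2 pairs higher and the other two lower. Pairs 1 and 3, where Slc13a3 differed most, had the lower values, at -0.23 and -0.15.

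Clybl (ENSMUSG00000025545, chromosome 14, 122181704 to 122402234, plus strand) was measured on 30 to 53 counts per library. Its level was 1.45 to 2.22 CPM in control and 1.30 to 2.17 CPM in IgG libraries. The log2 fold change was -0.09 (standard error 0.24), and 1 of 4 pairs was higher. The standard error leaves room for a change of a size like that of Slc25a10 in either direction.

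Sucnr1 (ENSMUSG00000027762, chromosome 3, 60081869 to 60087566, plus strand) was near the limit of detection. It had 0, 3, 1 and 2 counts in control libraries 1 to 4 and 1, 1, 3 and 0 counts in IgG libraries 1 to 4. At this depth a library with no read still leaves room for 3 counts (0.124 to 0.147 CPM), so that a difference was not detectable. The other metabolite receptors that were near 0 included Oxgr1, the alpha-ketoglutarate receptor, with 1 count in total over the 8 libraries.

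**Figure D2:**
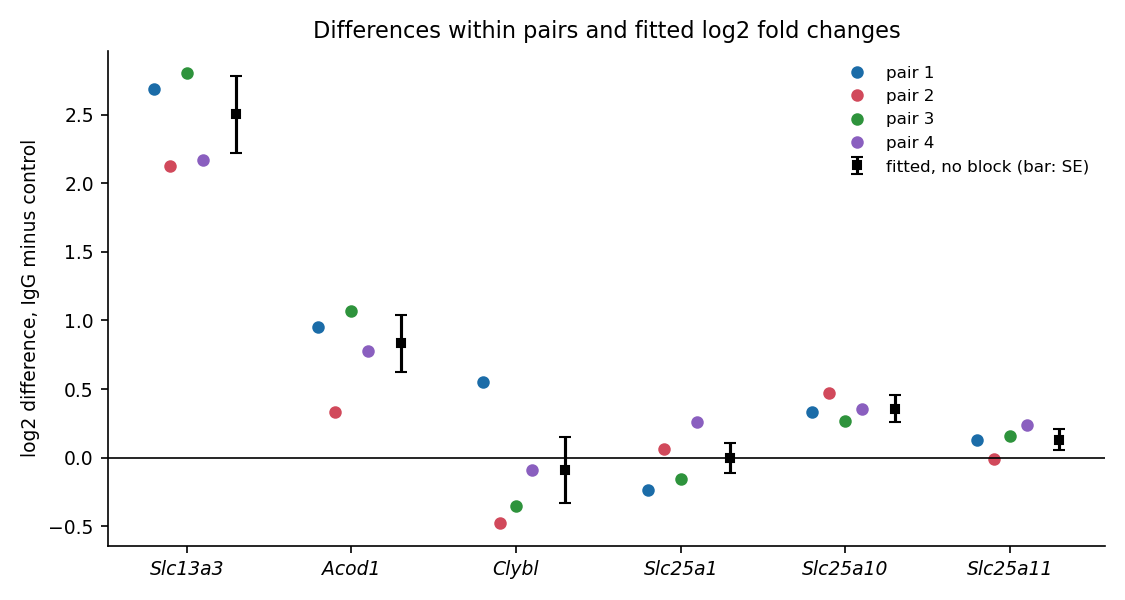
Log2 differences between the IgG and the control library of each pair (coloured points) and fitted log2 fold changes without the block (black squares, bars of 1 standard error) for the 6 tested members. The 4 points of Slc13a3 lie between 2.12 and 2.80 and those of Slc25a10 between 0.27 and 0.47, and those of Clybl and Slc25a1 fall on both sides of 0.

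The study took genes with a p-value under 0.01 whose log fold change exceeded 0.5 in size. These were read here as an unadjusted p-value and a log2 fold change, which its text does not specify. By these thresholds edgeR's quasi-likelihood fit took 0.844% of the 17537 genes, and Slc13a3 and Acod1, 2 of the 6 tested members, fell on that side. Groups that did not overlap with IgG higher were seen for 2 of the 6 members and for 2.6% of all genes. Slc13a3, Acod1 and Slc25a10 were higher in all 4 pairs, as were 10.4% of all genes. The members were picked from this contrast, so nothing is read from these counts.

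Levels were compared between genes per kilobase of merged exon. In control libraries the order was Slc25a11 with 47.5 ± 0.34 CPM per kb, Slc25a1 with 29.7 ± 0.78, Slc25a10 with 23.4 ± 2.30, Acod1 with 10.4 ± 1.44, Slc13a3 with 3.59 ± 0.81, Clybl with 1.22 ± 0.25 and Sucnr1 with 0.04 ± 0.04 CPM per kb (SD, n = 4). The ranges of neighbours in this order did not overlap over the 4 control libraries. With the longest transcript in place of merged exons, Slc25a10 (40.0 CPM per kb) stood above Slc25a1 (38.5 CPM per kb), so the order of that pair depends on the length used.

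With IgG the order was Slc25a11 (52.0 ± 3.55 CPM per kb), Slc25a10 (30.01 ± 2.39), Slc25a1 (29.6 ± 4.68), Slc13a3 (20.3 ± 7.24), Acod1 (18.5 ± 5.71), Clybl (1.14 ± 0.27) and Sucnr1 (0.04 ± 0.04). Slc13a3 ranged from 10.98 to 26.4 CPM per kb in these libraries, which overlapped the ranges of both Acod1 (11.6 to 23.8) and Slc25a1 (24.9 to 35.9). In each control library Slc13a3 had less than Acod1 per kb of exon, with ratios of 0.33, 0.46, 0.34 and 0.26 in libraries 1 to 4. In IgG libraries 1 to 4 the ratio was 1.11, 1.58, 1.15 and 0.69. In the fourth IgG library Slc13a3 was below Acod1 by this length, at 10.98 against 16.0 CPM per kb, but with the longest transcript it was slightly above, at 16.2 against 16.0 CPM per kb.

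**Figure D3:**
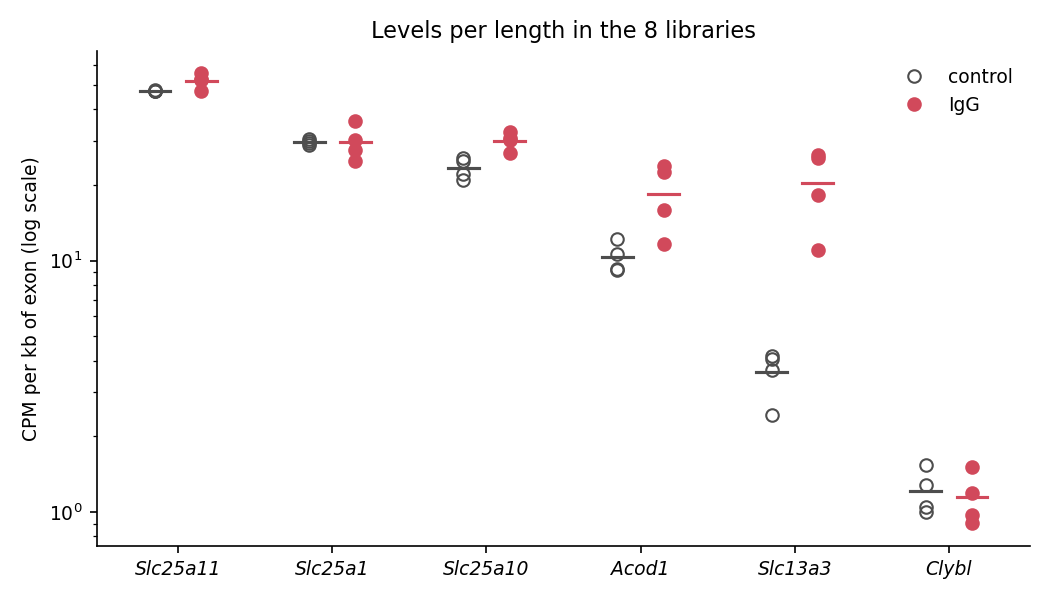
Levels in CPM per kb of merged exon (log axis) of 6 members in the control (open circles) and IgG libraries (filled circles), with lines at group means. Sucnr1 is not drawn because 2 libraries are at 0. Slc13a3 lay below Acod1 in all control libraries, and the mean was 20.3 against 18.5 CPM per kb with IgG.

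Lists of 110 further genes were drawn up by function, of which 88 were tested. None of the 88 met the thresholds of the study in edgeR's quasi-likelihood test, without or with the replicate block, against 0.844% and 1.82% of all genes tested, and the same count of 0 was given by the likelihood ratio test and DESeq2. At such background shares few calls would fall among 88 genes of any kind, so the count is not a result about these lists. Slco2b1 met the thresholds when libraries were scaled by their totals, and Gpr84 when IgG library 2 was left out. None had an adjusted p-value under 0.05 (Benjamini-Hochberg) in either fit, where 0% and 0.393% of all genes did, and the smallest was 0.692 without and 0.193 with the block. At an unadjusted p-value under 0.05 there were 11 (7 higher and 4 lower, 12.5%) without the block and 7 (4 higher and 3 lower, 7.95%) with it, and over all genes 7.01% and 10.2%. The median log2 fold change of the 88 genes was 0.02, beside 0.00 over all genes tested.

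The other 4 transporters of the SLC13 family, which carry sulfate, citrate or dicarboxylates in other tissues, were too low to be tested. Slc13a1, the sulfate transporter, had 1 count in total over the 8 libraries. Slc13a2 (NaDC1) had 0 to 7 counts per library, and Slc13a5 (NaCT), the citrate transporter, 0 to 3. Slc13a4 had 4, 5, 9 and 18 counts in control and 6, 5, 1 and 11 counts in IgG libraries. Slc13a3 was thus the only family member with more than 18 counts in any library.

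Among 7 genes of itaconate synthesis and breakdown other than the members, none was called and the median log2 fold change was 0.03. Cs, citrate synthase, had the highest value at 0.20 (standard error 0.09, edgeR adjusted p = 0.692), from 150 ± 5.69 to 172 ± 18.3 CPM. Sugct, which can transfer CoA to itaconate, had the lowest at -0.33 (standard error 0.36).

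Of 9 tested mitochondrial carriers other than the members, Slc25a12, an aspartate-glutamate carrier, had the highest log2 fold change. It averaged 40.7 ± 1.73 CPM without and 50.2 ± 7.65 CPM with IgG, for a log2 fold change of 0.30 (standard error 0.11, edgeR adjusted p = 0.692), and was higher in 4 of 4 pairs. Slc25a18, a glutamate carrier, had the lowest at -0.12 (standard error 0.18). The list's median was -0.03. The oxodicarboxylate carrier Slc25a21 had 0 counts in every library.

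Among 18 citric acid cycle genes, 15 had positive log2 fold changes and 3 negative ones, with a median of 0.06, and none was called. When libraries were scaled by their totals 7 were positive and 11 negative. Sdhb, the iron-sulfur subunit of succinate dehydrogenase, was the highest at 0.21 (standard error 0.08, edgeR adjusted p = 0.692), with 98.6 ± 5.20 CPM without and 114 ± 7.48 CPM with IgG, and higher in 4 of 4 pairs. Sdhd, a membrane anchor of the same enzyme, was the lowest at -0.13 (standard error 0.13). Of the 8 genes of succinate dehydrogenase and its assembly, 4 were positive and 4 negative, or 2 and 6 under library totals. Sdhaf3 had the lowest value at -0.23 (standard error 0.18). Among the subunits of this target enzyme of itaconate, Sdhd alone was negative under TMM, by about its standard error.

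The list of citrate and malate enzymes was drawn up for the cytosol, but Me2, Pck2 and Got2 in it are mitochondrial. The signs of its 10 tested genes depended on the scaling, with 10 positive under TMM, 8 under upper quartile scaling and 3 under library totals. Of all 17537 genes, 50.7%, 43.3% and 31.8% were positive under these scalings. Under TMM the values ran from 0.02 for Acss2, the acetyl-CoA synthetase, to 0.19 for Mdh1, the cytosolic malate dehydrogenase. Mdh1 averaged 152 ± 4.31 CPM without and 174 ± 11.2 CPM with IgG (standard error 0.08, edgeR adjusted p = 0.692). None was called, and the median was 0.08. The list for monocarboxylate transport, which moves lactate and pyruvate, also holds Slc16a10, an aromatic amino acid transporter. Among its 8 tested genes values ran from -0.15 for Slc16a3 (MCT4) to 0.28 for Slc16a7 (MCT2), with standard errors of 0.19 and 0.17.

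Metabolite receptors had the highest median of these pathway lists, 0.39, on 4 tested genes of 10. Gpr84, a receptor for medium-chain fatty acids, averaged 22.0 ± 4.15 CPM without and 29.5 ± 5.73 CPM with IgG, for a log2 fold change of 0.42 (standard error 0.17, edgeR adjusted p = 0.692, or 0.214 with the block). Hcar2, the hydroxybutyrate and niacin receptor, named here after its values were seen, had 22.2 ± 3.67 and 29.2 ± 5.06 CPM, a log2 fold change of 0.39 (standard error 0.15, edgeR adjusted p = 0.692, or 0.193 with the block). Both were higher in 4 of 4 pairs. Ffar4, a fatty acid receptor at about 1 CPM, had the lowest value at -0.47 (standard error 0.37).

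Of 11 genes that respond to or govern the Nrf2 and Atf3 programmes, which itaconate derivatives are known to act on, 9 had negative values and 2 positive ones, and none was called. Nqo1, a classical Nrf2 target, was the lowest at -0.72 (standard error 0.30, edgeR adjusted p = 0.692), from 1.04 ± 0.25 to 0.63 ± 0.16 CPM, and was lower in 3 of 4 pairs. Gclm, of glutathione synthesis, was the highest at 0.25 (standard error 0.12). Txnrd1 and Atf3, picked after their values were seen, had -0.35 (standard error 0.13) and -0.22 (standard error 0.09). With the block Txnrd1 had -0.37 (standard error 0.10, edgeR adjusted p = 0.264) and Atf3 had -0.22 (standard error 0.10, edgeR adjusted p = 0.499). The list's median was -0.10.

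For N-acetylaspartate, another substrate of Slc13a3, all 5 tested genes had negative values under each of the 4 scalings tried, from -0.28 for Rimklb to -0.19 for Rimkla, with standard errors of 0.26 and 0.29. Nat8l, named after its values were seen, averaged 30.8 ± 3.75 CPM without and 26.3 ± 5.90 CPM with IgG. Its log2 fold change was -0.23 (standard error 0.16, edgeR adjusted p = 0.717, or 0.479 with the block), and it was lower in 4 of 4 pairs. The remaining tested genes of this list averaged at most 3.26 CPM in control libraries. Among 14 genes of cobalamin and methylmalonyl-CoA metabolism, which intersects with itaconate breakdown, values ran from -0.16 for Mmab to 0.19 for Mtr, and the median was 0.00. Of 3 tested organic anion transporters, Slco2b1 had -0.44 (standard error 0.17, edgeR adjusted p = 0.692) and was lower in 4 of 4 pairs. Abcc4, an efflux pump, had 0.17 (standard error 0.15).

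**Figure D4:**
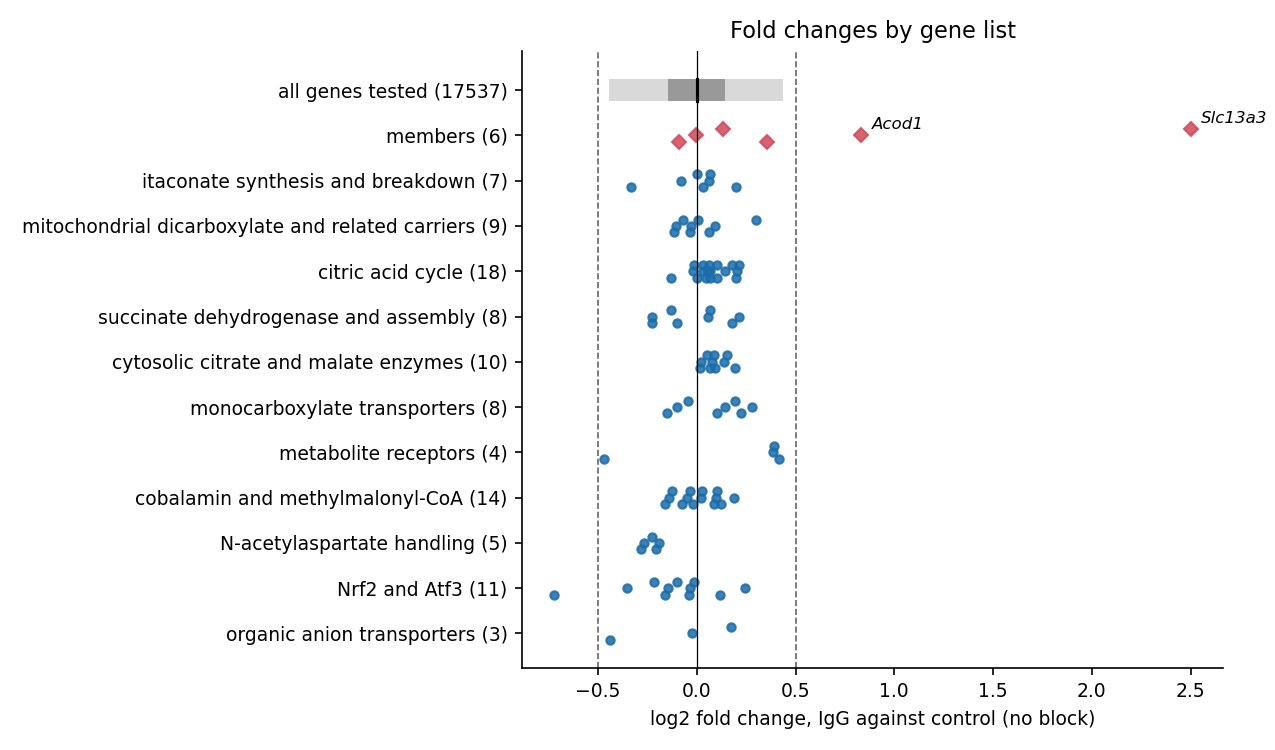
Log2 fold changes (no block) of the members and of the tested genes in each pathway list, with the number tested in brackets, the members as diamonds and dashed lines at 0.5 in either direction. The top bar spans the central 90% (light) and 50% (dark) of all genes, from -0.45 to 0.44 and from -0.15 to 0.14. Slc13a3 at 2.50 and Acod1 at 0.83 lie to the right of the other genes drawn, and marker lists are not drawn. The list labelled as cytosolic citrate and malate enzymes also holds the mitochondrial Me2, Pck2 and Got2.

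The genes whose profile was most like that of Slc13a3 were named by Pearson's correlation of log2 CPM over the 8 libraries, as a description, since the 2 groups of libraries shape it. The 5 highest were Vnn3, a vanin-family gene (r = 0.99), 2310001K24Rik (0.99), Gm1720 (0.98), Ehd1, of endocytic recycling (0.98), and Rac2, a GTPase of blood cells (0.98). Vnn3, 2310001K24Rik and Gm1720 were at or below 1.33 CPM in every library. Ehd1 had 78.4 CPM without and 127 CPM with IgG on average, and Rac2 had 251 and 393 CPM. Slc25a10 had r = 0.93, Acod1 0.85, Slc25a11 0.63, Clybl 0.01 and Slc25a1 -0.33.

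After the group means were taken out, the 5 genes that varied most like Slc13a3 among libraries of a group were B3galnt1 (r = 0.99), Clec4a1 (0.98), Gm48960 (0.98), St3gal4 (0.98) and Clec4a3 (0.98). Clec4a1 and Clec4a3 encode C-type lectin receptors of myeloid cells. Clec4a1 had 40.8, 34.1, 30.2 and 19.8 CPM in control libraries 1 to 4 and 129, 73.0, 109 and 39.1 CPM in IgG libraries 1 to 4. As for Slc13a3, the fourth library was the lowest in both groups. By this measure r was 0.75 for Slc25a10, 0.57 for Clybl, 0.55 for Acod1, -0.21 for Slc25a11 and -0.85 for Slc25a1. No gene was shared by the 2 sets of 5, nor did the 5 genes with the highest Spearman correlation over the 8 libraries share any with the first set, so that the names depend on the measure. 2310001K24Rik and Gm48960 are annotated as antisense RNAs, whose reads cannot be told from those of the opposite gene without strand.

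**Figure D5:**
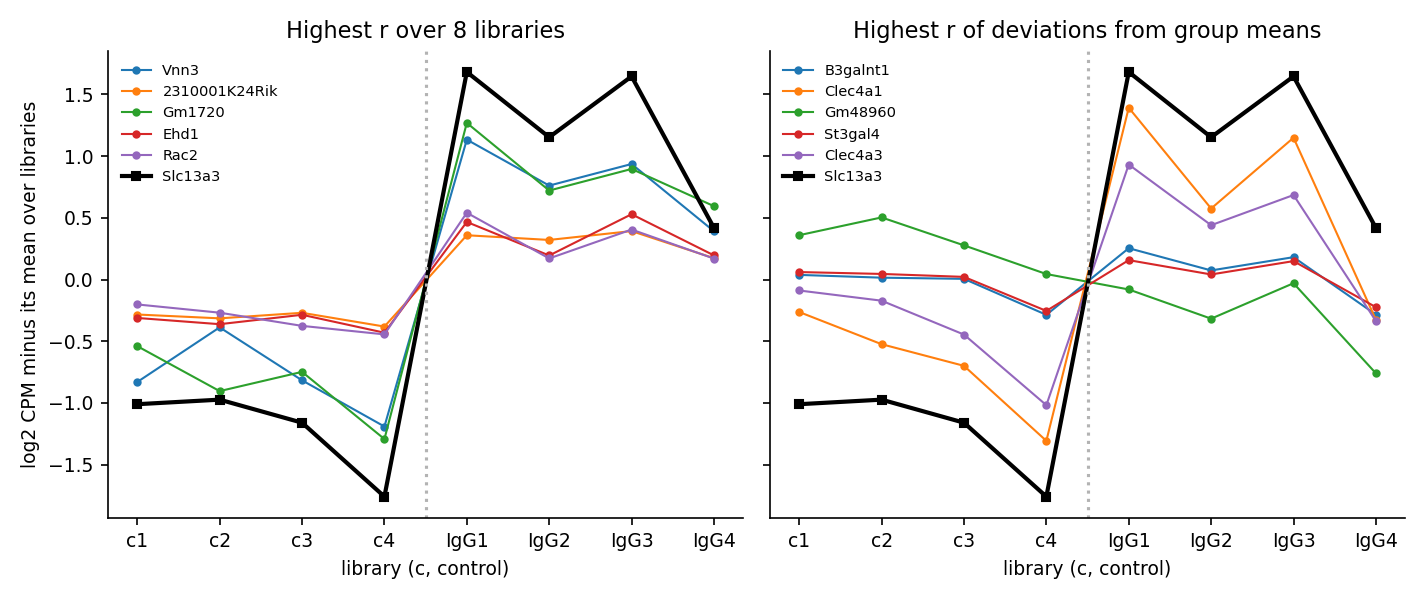
Log2 CPM minus its mean over the 8 libraries for Slc13a3 (black) and the 5 genes most like it, by correlation over all libraries (left) and of deviations from group means (right). The lines only join the values of a gene, and the replicate numbers follow the order of their dates. Slc13a3 was lowest in control library 4 and, among the IgG libraries, in library 4.

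The nearest tested neighbours of Slc13a3 and Slc25a10 on the chromosome, looked up by position after the data were seen, gave no call. For Zfp334, 16769 bases away, the log2 fold change was -0.19 (standard error 0.17, edgeR adjusted p = 0.759). Trp53rka, 16880 bases away on the other side, had 0.13 (standard error 0.10, edgeR adjusted p = 0.736) and was higher in 4 of 4 pairs. Next to Slc25a10, Mrpl12 had -0.01 (standard error 0.14) and Mcrip1 0.02 (standard error 0.13).

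The microglia label was checked against markers. Csf1r, a receptor that microglia depend on, had 1189 ± 91.8 CPM in control libraries, and all 8 microglial markers were tested. The microglial markers summed to 4936 to 5302 CPM in control and 5145 to 6549 CPM in IgG libraries, with all 8 log2 fold changes positive. Of the 8, Aif1 and Tmem119 met the thresholds of the study without the block, and Aif1 with it. Aif1 was the highest of them at 0.67 (standard error 0.16, edgeR adjusted p = 0.615, or 0.0331 with the block). RNA of other cells was present as well, since oligodendrocyte lineage markers, among them Mbp, summed to 1132 to 1726 CPM in control and 972 to 1622 CPM in IgG libraries. Astrocytes are known to express Slc13a3, and their 8 markers, led by Gfap, summed to 157 to 175 CPM in control and 141 to 166 CPM in IgG libraries. Of these 8, 7 had negative log2 fold changes and none was called. Border-associated macrophage markers summed to 288 to 460 CPM in control and 321 to 831 CPM in IgG libraries. Most of this was Siglec1, at 305 ± 66.8 and 511 ± 210 CPM (log2 fold change 0.74, standard error 0.28, edgeR adjusted p = 0.692, or 0.111 with the block), which met the thresholds of the study with the block only. Mrc1, the mannose receptor, was the next at 67.1 ± 11.2 CPM without and 79.0 ± 27.3 CPM with IgG (log2 fold change 0.24, standard error 0.24), higher in 3 of 4 pairs, and Pf4 averaged 5.61 ± 0.55 and 6.40 ± 1.44 CPM. F13a1, at 5 to 18 counts per library, had -0.28 (standard error 0.42) and was lower in 4 of 4 pairs. Lyve1 had 0 to 5 counts and Cd163 0 to 3 counts per library. Endothelial markers were low, summing to 6.55 to 10.9 CPM in control and 5.55 to 14.2 CPM in IgG libraries, with Cldn5 at 0 counts in every library. Most of the sum was Kdr, a receptor for VEGF, at 7.44 ± 1.23 CPM without and 8.02 ± 3.06 CPM with IgG (log2 fold change 0.11, standard error 0.27). The median log2 fold change of the 3 tested was 0.96, set by Cdh5 and Pecam1, which were lower than Kdr in level. Cdh5, a junction protein of endothelial cells, went from 0.89 ± 0.49 to 1.76 ± 0.97 CPM (log2 fold change 0.97, standard error 0.53, edgeR adjusted p = 0.693, or 0.221 with the block), was higher in 4 of 4 pairs and met the thresholds of the study with the block only. Pecam1 had 0.96 (standard error 0.56). Among neuronal and oligodendrocyte markers none was called. All 8 oligodendrocyte markers had negative log2 fold changes under each of the 4 scalings tried, as had 5 of the 6 neuronal ones. Olig2, a transcription factor of that lineage, had the lowest value of the oligodendrocyte list, at -0.44 (standard error 0.35, edgeR adjusted p = 0.746, or 0.235 with the block), and was lower in 4 of 4 pairs. The part of the higher microglial, Cdh5 and Siglec1 values and of the mostly negative oligodendrocyte, neuronal and astrocyte fold changes in the difference of Slc13a3 and Acod1 was not tested, and in bulk RNA a change in cell number and one in RNA per cell cannot be told apart.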

How the data were processed

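RNA-seq of 4 control and 4 IgG libraries was analysed from the table of whole-number counts per Ensembl gene deposited by the authors, who filtered reads and aligned them with HISAT2 to GRCm38. The submitters' processing notes name HISAT2 2.2.1, SAMtools 1.12, Picard 2.26.3, featureCounts, R 4.1.2 and edgeR 3.36.0. The annotation, multi-mapping rule and strand setting of the authors' counts are not given in the sources used here. Symbols, coordinates and exon lengths came from GENCODE M21, in which 55144 of 55385 identifiers were found, and promoters from RefSeq (GRCm38.p6).

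TMM scaling and filterByExpr left 17537 genes. These were fitted in edgeR 4.0.16 (R 4.3.3) by quasi-likelihood on the group alone, with Benjamini-Hochberg adjustment. This fit leaves out the pairing by date, which the replicate block takes into account. An adjusted p-value printed without mention of the block comes from the fit without it. Log2 CPM used a prior count of 2. Library totals were 21287816 to 23703216 counts, and limits from counts cover counting error only. The labels do not say whether libraries were separate cultures beyond their dates, so p-values measure the spread between these libraries, which may be partly technical. Libraries of a group differed by more than sampling noise (chi-square per degree of freedom of at least 5.00, and up to 121 among IgG libraries).

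The pairing by replicate number comes from the labels, where both libraries of a number bear one date. Deviations of same-numbered libraries from group means correlated at 0.44, 0.36, 0.25 and 0.31 across 12485 genes, where libraries of unlike numbers gave -0.37 to 0.23.

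The members and the gene lists were chosen with earlier results of these data known. Named were all members, list genes that passed a threshold in either fit, the highest and lowest gene of each pathway list, the 5 genes most like Slc13a3 by each of 2 correlations, the SLC13 family and the main markers, with exceptions marked. The scripts were tested on simulated data. Alternatives were the replicate block, a length and GC correction (lowess, span 0.3), the likelihood ratio test, DESeq2 1.42.0, other scalings and filters, Spearman correlation for the likeness, and leaving out single libraries or pairs.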

Additional observations from a re-analysis of the deposited data

How the results depend on the processing

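The study reports more genes at its thresholds than were found here without or with the replicate block. The number of genes past the thresholds of the study was 148 and became 320 with the replicate block, 334 with the replicate block and a length and GC correction, 255 with the likelihood ratio test and 284 without the low-count filter. It ran from 56 to 610 when 1 library or pair was left out, highest without IgG library 4 and lowest without pair 3, and from 215 to 762 when a pair was left out of the fit with the replicate block (326 without pair 2). Scaling by library totals turned the share of higher genes among those called from 68.9% to 42.3%. At an adjusted p-value under 0.05, 0 genes became 69 with the replicate block, 198 with the block and the length and GC correction, 43 with the likelihood ratio test, 53 with DESeq2, 4 without the filter and 3 with pairs 2 and 4 only (a setting chosen after seeing the data). There it ran from 0 to 6 with a library or pair left out and from 0 to 182 in the fit with the replicate block (0 without pair 2, 14 without pair 1, 16 without pair 3, 182 without pair 4).

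The 0 pathway genes past the thresholds became 1 under library totals (Slco2b1) and ran from 0 to 1 with a library left out (Gpr84 without IgG library 2), and at an adjusted p-value under 0.05 the count was 0 in every setting. The log2 fold change of Slc13a3 was 2.15 in pairs 2 and 4 only. It ran from 2.34 to 2.71 with a library or pair left out, 2.34 to 2.56 with a pair left out under the replicate block, and 2.15 to 2.51 in the other settings. That of Acod1 ran from 0.69 to 1.00 with a library or pair left out and from 0.58 to 0.83 in the other settings. Slc25a10 had 0.26 under library totals and 0.49 with the block and the length and GC correction, and Slc25a11 stayed positive, whereas Slc25a1 (-0.12 to 0.17) lay on both sides of 0. The causes of these shifts were not tested. Depth limits Clybl, at 30 to 53 counts per library, and Sucnr1 with the other SLC13 genes, where no difference was detectable.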

Other observations

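Of 218 tested genes with an Slc symbol, 2 met the thresholds of the study without the block, both higher with IgG, and 3 with it, shares of 0.917% and 1.38% beside 0.844% and 1.82% of all genes tested. These counts include Slc13a3, which was picked from this contrast, and nothing is read from them. The others were Slc7a7, a cationic amino acid transporter subunit of macrophages, and, with the block only, Slc9a9, an endosomal sodium-proton exchanger, both named after their values were seen. Slc7a7 averaged 56.7 ± 6.67 CPM without and 81.7 ± 19.3 CPM with IgG (log2 fold change 0.53, standard error 0.16). Slc9a9 had 24.3 ± 3.71 and 36.1 ± 12.5 CPM (0.57, standard error 0.24). By mean CPM per kb of exon Slc13a3 took place 120 among the 218 in control libraries and place 35 in IgG libraries.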
